A study of Mus musculus with 6 samples.

Results

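Interferon regulatory factors (IRFs) are transcription factors that share a DNA-binding domain and recognise GAAA-containing elements in interferon genes and in the genes that interferons induce. Levels of 8 IRF genes were followed in hepatic CD4 T cells, namely Irf1, Irf2, Irf3, Irf4, Irf5, Irf7, Irf8 and Irf9. They were taken by gene symbol from the deposited count table, which held 28430 symbols, and all 8 had enough reads to be among the 15694 genes tested. None of the 8 differed between the genotypes past the threshold used. Spread between libraries of a group was wide for Irf4 and narrow for Irf2 and Irf3.

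Bulk RNA-Seq had been performed on CD4 T cells sorted from the livers of dKO and WT mice, with 3 libraries for each of the 2 groups (dKO 1 to dKO 3 and WT 1 to WT 3). In dKO mice, floxed alleles of Nr4a1 and Nr4a2 (Nr4a1 fl/fl Nr4a2 fl/fl) are removed by Cre recombinase under the Cd4 promoter, which acts while T cells develop in the thymus and therefore also reaches CD8 T cells. All animals of both groups were fed to develop metabolic dysfunction-associated steatohepatitis (MASH), with a high-fat diet (60 kcal% fat, 0.1% methionine) to which no choline had been added, for 8 weeks. Age and sex for these libraries and the alleles of the WT mice were not given in the sources used here, and the study's methods call the replicates independent biological ones.

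The libraries held 5747744 to 8740564 counted reads in dKO and 7124553 to 11078184 in WT. Levels are normalised CPM, that is reads per 1000000 counted reads after scaling of library sizes, and changes are log2 fold changes of dKO over WT ± SE from edgeR. Nr4a2, a targeted gene, went against the labels with 477, 539 and 391 CPM in the libraries labelled dKO, against 160, 284 and 234 CPM in those labelled WT. Nr4a1, also targeted, had 711, 1033 and 639 CPM in dKO, against 328, 676 and 818 CPM in WT, with overlap between the groups. Where in each gene these reads lie was not analysed here. The groups are therefore named by their labels alone throughout. The sexes were mixed unevenly between the groups. Ddx3y, a Y-linked gene, reached 279 CPM in dKO 2, 253 CPM in WT 2 and 339 CPM in WT 3, with 16.4 to 32.0 CPM in the other libraries. Xist, made from the inactive X chromosome of female cells, had 1892, 793 and 1907 CPM in dKO, against 1650, 133 and 96.8 CPM in WT. Library dKO 2 thus held many reads of both genes. Every library expressed Cd4, at 389 to 430 CPM in dKO and 349 to 408 CPM in WT, and the macrophage marker Adgre1 had 0 reads throughout. Other cell types were not absent by every marker. The CD8 T cell gene Cd8a had 183 to 198 CPM in dKO and 119 to 139 CPM in WT, and markers of further cell types are given below.

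Members of the family act at different points of the interferon system and of lymphocyte activation. IRF3 and IRF7 are held in the cytoplasm until kinases activated by nucleic acid sensors phosphorylate them, and they then switch on type I interferon genes. IRF9 joins STAT proteins in the complex ISGF3, which carries the signal of the type I interferon receptor to antiviral genes. IRF1, itself induced by interferon gamma, drives antigen presentation and guanylate-binding protein genes, and IRF2 competes with it for the same sites. IRF4 is induced by antigen receptor signals in T cells in proportion to their strength and works with the AP-1 factor BATF, while IRF8 is its close relative in B cells, macrophages and dendritic cells.

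Promoter sequences give context for these inputs. Windows of 300 bases (250 before to 50 after the annotated start) were found for all 8 genes in RefSeq (GRCm38.p6), 11 windows in all, because Irf1, Irf8 and Irf9 have a second start. Each was searched on both strands for a core of the interferon-stimulated response element (ISRE core, GAAANNGAA), for a core of the gamma-activated site bound by STAT dimers (GAS core, TTCNNNGAA), for the monomer site of NR4A receptors (NBRE, AAAGGTCA) and for an AP-1 site (TGANTCA). Of all 32851 windows in the table, 8.56% hold the ISRE core, 8.3% the GAS core, 1.51% the NBRE and 7.81% the AP-1 site. A match occurred in 4 of the 11 windows, which are printed 5′ to 3′ because they hold the letters of sites that STAT dimers, the IRFs themselves or the targeted NR4A factors are known to bind. Capitals mark the matches.
Irf1, chr11:53769764-53770063, plus strand: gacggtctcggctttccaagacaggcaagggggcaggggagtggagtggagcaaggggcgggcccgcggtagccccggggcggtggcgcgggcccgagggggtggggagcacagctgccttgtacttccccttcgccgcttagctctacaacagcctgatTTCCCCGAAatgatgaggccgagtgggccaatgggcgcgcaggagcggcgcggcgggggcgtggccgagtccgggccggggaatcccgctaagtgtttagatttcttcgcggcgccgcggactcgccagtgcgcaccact
Irf2, chr8:46739495-46739794, plus strand: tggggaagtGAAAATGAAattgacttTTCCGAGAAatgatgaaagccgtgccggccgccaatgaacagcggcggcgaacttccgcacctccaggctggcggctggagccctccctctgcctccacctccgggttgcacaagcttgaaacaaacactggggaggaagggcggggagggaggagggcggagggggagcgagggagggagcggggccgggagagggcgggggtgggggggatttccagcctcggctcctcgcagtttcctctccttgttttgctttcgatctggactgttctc
Irf8, chr8:120736108-120736407, plus strand: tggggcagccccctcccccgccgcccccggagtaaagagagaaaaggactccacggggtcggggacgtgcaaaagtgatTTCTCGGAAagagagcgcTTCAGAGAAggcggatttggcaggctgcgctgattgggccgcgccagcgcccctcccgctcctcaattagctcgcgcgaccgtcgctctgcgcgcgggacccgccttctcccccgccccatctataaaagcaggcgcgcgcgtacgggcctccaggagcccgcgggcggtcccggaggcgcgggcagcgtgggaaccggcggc
Irf9, second start, chr14:55604329-55604628, plus strand: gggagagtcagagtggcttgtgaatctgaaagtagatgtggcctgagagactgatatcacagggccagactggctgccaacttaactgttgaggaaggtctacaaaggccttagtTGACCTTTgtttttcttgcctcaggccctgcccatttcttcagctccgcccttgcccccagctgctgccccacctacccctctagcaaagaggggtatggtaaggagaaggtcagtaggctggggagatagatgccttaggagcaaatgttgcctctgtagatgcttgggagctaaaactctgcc

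In the Irf1 window, the GAS core begins 90 bases before the start. The Irf2 window holds an ISRE core 241 bases and a GAS core 224 bases before the start, and the Irf8 window holds GAS cores 171 and 153 bases before it. The window of the second Irf9 start holds an NBRE on the reverse strand, 135 bases before the start, and no other window of a member holds that site. None of these matches overlaps another. A match is a description of letters and does not show that a factor binds there, and the 7 windows without a match, those of Irf3, Irf4, Irf5 and Irf7 among them, say nothing about these factors outside 300 bases.

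The question put to the family was whether any IRF transcript differed in level between the libraries labelled dKO and those labelled WT. By edgeR's quasi-likelihood test with Benjamini-Hochberg adjustment over all tested genes, 0 of the 8 passed an adjusted p of 0.05, where 3.31% of all tested genes did (2.15% higher and 1.17% lower in dKO). At an unadjusted p under 0.05 stood 1 member, Irf3, where 19.2% of all tested genes stood. DESeq2, limma-voom and limma on the deposited normalised values likewise called 0 members, with 1 at an unadjusted p under 0.05 in each, although they called 760, 498 and 584 genes in all. At the thresholds stated by the study (fold above 1.5 or below 0.5 with unadjusted p under 0.05), which 5.91% of tested genes met, 0 members stood. The median log2 fold change of the 8 was 0.04, against -0.01 over all tested genes, and 5 of the 8 lay within 0.1 of 0.

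**Figure D1:**
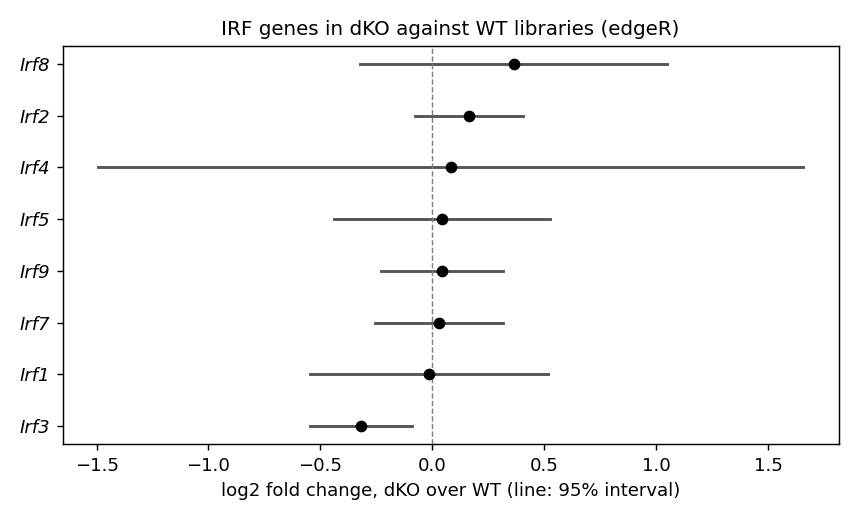
Log2 fold change of each IRF gene in dKO over WT (x axis) by gene (y axis), with points for the edgeR estimate and lines for its 95% interval. The interval leaves out 0 for Irf3 alone (-0.55 to -0.09), and that of Irf4 is the widest (-1.49 to 1.66).

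These results do not show equal levels, because the intervals differ greatly in width. They were narrow for Irf2, Irf7 and Irf9, where a change beyond 0.403 on the log2 scale in either direction lay outside the 95% interval. They were wide for Irf4, where the interval ran from a fold of 0.355 to a fold of 3.15.

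Irf1 was the most abundant member. It stood at 236, 315 and 266 CPM in dKO 1 to dKO 3, against 179, 325 and 321 CPM in WT 1 to WT 3. The dKO values lay inside the range of the WT values, whose spread came from the low library WT 1. The means were 272 ± 40.0 CPM in dKO and 275 ± 82.8 CPM in WT (SD, n = 3 each), a log2 fold change of -0.01 ± 0.23 (95% interval -0.55 to 0.52, adjusted p = 0.982 by edgeR). The value moved with the model. With the level of Xist, the RNA made from the inactive X chromosome of female cells, as a covariate it was 0.55 (adjusted p = 0.0416, in a range of 0.0416 to 0.999 over all alternatives).

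Irf2, the repressor that shares the sites of IRF1, varied little. It had 90.2, 78.0 and 79.4 CPM in dKO, against 72.9, 81.1 and 67.0 CPM in WT. The groups overlapped through WT 2, and dKO 1 was the highest library. The log2 fold change was 0.16 ± 0.11 (95% interval -0.08 to 0.40, adjusted p = 0.460 by edgeR), and it stayed above 0 under each of the 17 alternatives.

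Irf3, the constitutively made factor that acts first after nucleic acid sensing, was the member with the clearest separation. Its levels were 64.2, 64.6 and 70.6 CPM in dKO, against 91.0, 78.9 and 79.2 CPM in WT. Every dKO library thus lay below every WT library, and groups that do not overlap were found for 25.0% of all tested genes. The means were 66.5 ± 3.59 CPM in dKO and 83.1 ± 6.91 CPM in WT (SD, n = 3 each), and the log2 fold change of -0.32 ± 0.10 (95% interval -0.55 to -0.09) had an unadjusted p of 0.00960 and did not pass after adjustment (adjusted p = 0.115 by edgeR). Under the 17 alternatives the value stayed below 0, with adjusted p between 0.0650 and 0.818. Exons of Irf3 share 88 of 3442 bases with Bcl2l12, which lies on the opposite strand (GENCODE, GRCm38), and the sources used here do not state if counting was stranded. Bcl2l12 had 6.94 ± 1.82 CPM in dKO and 12.6 ± 2.60 CPM in WT (SD, n = 3 each), a log2 fold change of -0.85 ± 0.23 (adjusted p = 0.0688 by edgeR), and its part in the Irf3 value was not tested.

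Irf7, which amplifies the type I interferon response and is itself induced by interferon, had 63.4, 79.2 and 68.1 CPM in dKO, against 56.1, 74.8 and 74.95 CPM in WT. The ranges of the groups overlapped over most of their width. Its log2 fold change was 0.03 ± 0.13 (95% interval -0.26 to 0.32, adjusted p = 0.935 by edgeR). Irf5, which acts downstream of Toll-like receptors mainly in myeloid and B cells, was the least abundant member with 17.6, 19.8 and 20.3 CPM in dKO, against 13.1, 25.9 and 17.1 CPM in WT. These values rest on 95 to 210 reads per library. The 3 dKO libraries lay close together within the wider WT range, and the log2 fold change was 0.04 ± 0.22 (adjusted p = 0.941 by edgeR). Irf5 shares 411 of 2905 exon bases with Tnpo3 on the opposite strand, and Tnpo3 had a log2 fold change of -0.02 ± 0.11.

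Irf9, the DNA-binding part of ISGF3, had 62.6, 78.7 and 86.4 CPM in dKO, against 66.8, 76.7 and 77.7 CPM in WT. The dKO libraries held both the lowest and the highest value. The log2 fold change was 0.04 ± 0.13 (95% interval -0.23 to 0.32, adjusted p = 0.895 by edgeR). Irf9 shares 123 of 5386 exon bases with Rnf31 on the same strand, and Rnf31 had a log2 fold change of 0.10 ± 0.13.

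Irf4, the factor through which antigen receptor strength shapes effector and regulatory T cells, varied most. It stood at 70.8, 126 and 156 CPM in dKO, against 44.8, 123 and 165 CPM in WT. In both groups library 1 was lowest and library 3 highest, and the highest of all 6 values was 3.68 times the lowest. The means were 118 ± 43.1 CPM in dKO and 111 ± 61.0 CPM in WT (SD, n = 3 each), with a log2 fold change of 0.08 ± 0.59 (adjusted p = 0.961 by edgeR). The biological coefficient of variation that edgeR gave Irf4 was 49.1%, where the value common to all genes was 14.5%. The sign depended on single libraries, since the log2 fold change was -0.19 without dKO 3 and -0.29 without WT 1.

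Irf8, its relative, stood at 27.8, 32.3 and 34.0 CPM in dKO, against 15.5, 20.7 and 36.1 CPM in WT. WT 3 lay above every dKO library, and WT 1 and WT 2 lay below all of them. The means were 31.4 ± 3.24 CPM in dKO and 24.1 ± 10.7 CPM in WT (SD, n = 3 each), and the log2 fold change of 0.36 ± 0.29 (95% interval -0.32 to 1.05) had an adjusted p of 0.565 by edgeR. Without WT 3 it was 0.79 ± 0.17 with an adjusted p of 0.0451, within a range of 0.0425 to 0.994 over all alternatives. WT 3 also stood apart in some genes of dendritic cells, in which IRF8 is a defining factor. Siglech, a marker of plasmacytoid dendritic cells, had 240 reads in WT 3 and 15 to 32 reads in the other libraries, Clec9a had 10 reads in WT 3 and 0 elsewhere, and Tyrobp, a signalling adaptor of myeloid and natural killer cells, had 140 reads in WT 3 and 0 to 21 reads in the others. Of the natural killer cell markers, Klrb1c had 15.8 CPM in WT 3 and 3.19 to 8.65 CPM elsewhere. Klra9 had 11.9 CPM in WT 3 and 1.54 to 5.43 CPM elsewhere. Eomes, of the same list, had its lowest level, 38.6 CPM, in WT 3, and Ncr1 was highest in WT 2.

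Not all dendritic cell genes were high in WT 3. Zbtb46, a factor of conventional dendritic cells, had 11.6 to 14.3 CPM in dKO, and its lowest value of all 6 libraries, 6.71 CPM, was in WT 3. Of the 12 dendritic cell markers 7 were tested, and Ccr9 was higher (log2 fold change 1.18, adjusted p = 0.00912 by edgeR) while Itgax (-3.78, adjusted p = 0.00330) and Xcr1 (-1.44, adjusted p = 0.00484) were lower in dKO. Itgax had 1 read in each dKO library. Over all 12 markers the summed level was 76.3, 72.5 and 64.4 CPM in dKO, against 58.0, 63.6 and 90.5 CPM in WT. The largest part of this sum in each dKO library was Ccr9, with 38.3, 33.1 and 27.98 CPM. In WT it had 10.3, 14.6 and 18.2 CPM. The sum therefore does not show that the other dendritic cell markers were alike between the groups. Of 20 macrophage, monocyte and neutrophil markers 6 were tested and 1, Fcer1g, was lower in dKO. The 19 in the table summed to 100.1 to 112 CPM in dKO and 92.0 to 122 CPM in WT. Most of that sum was Cst3, with 85.8 to 96.1 CPM in dKO and 76.6 to 99.9 CPM in WT, so it says little about the other markers. Of the 13 B and plasma cell markers 4 were tested and 0 passed, and the 10 in the table summed to 19.8, 19.2 and 24.8 CPM in dKO, against 16.6, 48.3 and 20.3 CPM in WT. The B cell gene Ms4a1 had 0 to 3 reads in the dKO libraries and 0 to 4 reads in the WT libraries. Jchain, a plasma cell gene, had 243 reads in WT 2 and 1 to 14 reads in the others. The part of such cells in the Irf4, Irf5 and Irf8 values was not tested, and in bulk samples more cells of a type cannot be told apart from more RNA per cell.

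**Figure D2:**
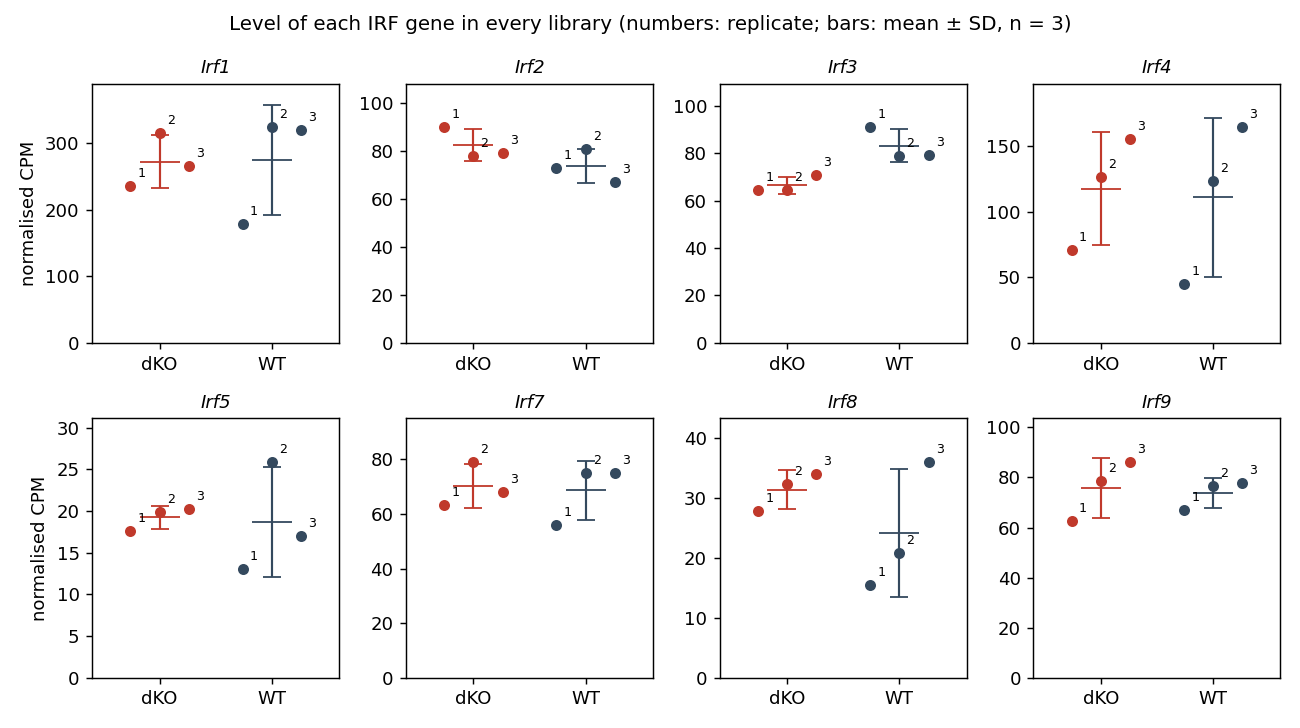
Normalised CPM (y axis, from 0) of each IRF gene in each library of dKO and WT (x axis), with the replicate number beside each point and bars for mean ± SD (n = 3). The groups of Irf3 do not overlap, WT 3 stands above the other WT libraries for Irf8, and Irf4 runs from 44.8 to 165 CPM.

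Levels of different genes were compared per kilobase of protein-coding exon (GENCODE, GRCm38), since longer transcripts give more reads. On this scale Irf1 led with 78.4 ± 11.5 CPM per kb in dKO and 79.2 ± 23.8 CPM per kb in WT (SD, n = 3 each). Every library had more Irf1 per kb than any library had of another member, the lowest Irf1 value being 51.6 CPM per kb, in WT. A middle group followed in dKO with Irf2 at 29.7 ± 2.40, Irf7 at 29.0 ± 3.36, Irf3 at 25.9 ± 1.40, Irf4 at 23.98 ± 8.78 and Irf9 at 23.6 ± 3.76 CPM per kb. In WT the middle group was led by Irf3, at 32.3 ± 2.69 CPM per kb, with Irf7 at 28.4 ± 4.49, Irf2 at 26.5 ± 2.55, Irf9 at 22.9 ± 1.87 and Irf4 at 22.6 ± 12.4 CPM per kb. Neighbours within the middle group overlapped in both genotypes. Irf8 (9.13 ± 0.942 CPM per kb in dKO and 7.02 ± 3.11 in WT) and Irf5 (7.01 ± 0.518 in dKO and 6.81 ± 2.40 in WT) formed the low end, and they overlapped in WT but not in dKO.

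The summed level of the 8 members was 633, 794 and 780 CPM in dKO, against 540, 807 and 838 CPM in WT. Library 1 was thus the lowest in each group. WT 1 was the lowest of all 6 libraries for Irf1, Irf4, Irf5, Irf7 and Irf8, and dKO 1 was the lowest dKO library for every member but Irf2. For comparison, genes with at least 10 CPM had a median SD within groups of 0.15 on the log2 scale. Of the members, 6 lay above it (Irf4 0.80, Irf8 0.43, Irf1 0.37, Irf5 0.34, Irf7 0.20 and Irf9 0.19) and 2 below it (Irf2 0.13 and Irf3 0.098).

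A list of 15 immediate early and heat shock genes, which cells raise during handling and stress, followed the same libraries. Their summed level was 7136, 15182 and 16073 CPM in dKO, against 8063, 23343 and 30353 CPM in WT, and 0 of the 15 passed the test between groups (median log2 fold change -0.70). Both library 1 samples were again the lowest. With the mean log2 level of these genes as a covariate, the log2 fold change of Irf4 was 0.76 ± 0.13 (adjusted p = 0.00341, in a range of 0.00341 to 0.991 over all alternatives) and that of Irf8 was 0.71 ± 0.18 (adjusted p = 0.0425). Such a fit spends 1 of few degrees of freedom on a measure taken from the same libraries, and it was 1 of 4 covariates tried. With the mean log2 level of the tested B cell markers in its place, the estimate for Irf4 was -0.47 ± 0.98 (adjusted p = 0.962 by edgeR). For Irf8 it was -0.07 ± 0.47 (adjusted p = 0.994 by edgeR). These SEs are larger than the estimates, so neither sign is settled by that fit, which called 2 genes higher and 1 lower in all.

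**Figure D3:**
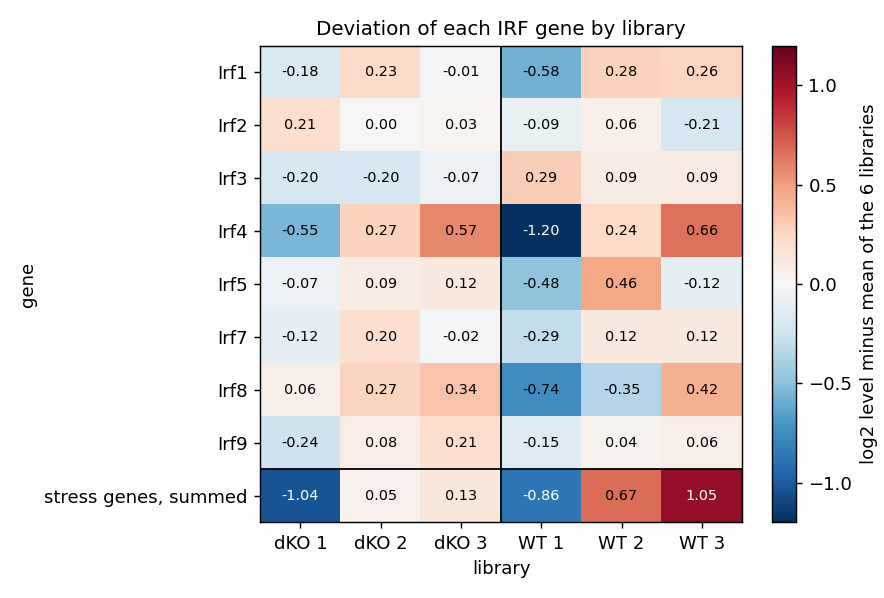
Deviation of each IRF gene in each library (columns) from its mean over the 6 libraries, on the log2 scale, with the summed stress genes in the bottom line. dKO 1 and WT 1 are low for Irf4 (-0.55 and -1.20) and for the stress genes (-1.04 and -0.86), and Irf2 and Irf3 do not follow this pattern.

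Genes whose pattern over the 6 libraries was most like that of a member were found by Pearson's r of log2 CPM among 9508 tested genes with at least 10 CPM. The libraries share depth, sex and handling differences, so r describes these 6 libraries only. Irf4 was most like Bag3, a co-chaperone of HSP70 induced by heat shock (r = 0.994), with Ccdc117 (r = 0.993) and Psma1, a proteasome subunit (r = 0.985). Irf7 was most like Arhgap11a (r = 0.997), Myd88, the adaptor of Toll-like receptors (r = 0.996), and Carhsp1 (r = 0.993). Carhsp1 was also first for Irf1 (r = 0.992), followed there by the class Ib MHC gene H2-T22 (r = 0.990) and LOC68395 (r = 0.986). Irf3 was most like Polh, a translesion DNA polymerase (r = 0.996), with Tyw1 (r = 0.995) and Timm17a (r = 0.993), which encode a tRNA-modifying enzyme and a mitochondrial import subunit. For Irf2 the nearest genes were Ddr1 (r = 0.985), AA388235 (r = 0.983) and Fbxw11 (r = 0.981). Irf5 was nearest to Adprm (r = 0.995), Timm8b (r = 0.988) and F730043M19Rik (r = 0.988). Irf8 was nearest to Gm19765 (r = 0.996), Gtf3c3 (r = 0.990) and Golga5 (r = 0.970), and Irf9 to Trim59 (r = 0.990), Gm40884 (r = 0.988) and Ttf2 (r = 0.985).

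The genes around the IRFs were read from lists ordered by role. Of the 21 interferon ligand genes 5 were in the table and 1, Ifng, was abundant enough to be tested. Ifng, which encodes interferon gamma, an inducer of Irf1, had 110, 147 and 185 CPM in dKO, against 141, 438 and 499 CPM in WT. The groups overlapped through WT 1, and the log2 fold change of -1.29 ± 0.55 did not pass (adjusted p = 0.308 by edgeR). Without WT 1 it was -1.67 ± 0.19 (adjusted p = 0.00196), and it was called lower in 2 of the 17 alternatives. Among 22 tested sensors, adaptors and kinases upstream of IRF3, IRF5 and IRF7, 1 was higher in dKO and 0 were lower. That is a share of 4.55% higher, beside 2.15% of all tested genes, and the median log2 fold change was 0.00. The gene that rose was Ifih1, which encodes the RNA sensor MDA5. It had 63.5, 63.7 and 69.1 CPM in dKO, against 47.2, 47.3 and 49.7 CPM in WT, without overlap, a log2 fold change of 0.45 ± 0.10 (adjusted p = 0.0296 by edgeR). The call did not survive the loss of any library except WT 1 (adjusted p up to 0.0999). Tbk1, the kinase that phosphorylates IRF3 and IRF7, had 90.8 ± 7.02 CPM in dKO and 74.2 ± 5.84 CPM in WT (SD, n = 3 each) and did not pass (adjusted p = 0.152 by edgeR).

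In the receptor branch, 1 of 9 tested interferon receptor, JAK and STAT genes was higher in dKO and 0 were lower, with a median log2 fold change of 0.16. Jak2, a kinase of the interferon gamma receptor, rose to 464, 377 and 309.6 CPM in dKO, against 230, 266 and 236 CPM in WT. The groups did not overlap, and the means were 383 ± 77.4 CPM in dKO and 244 ± 19.4 CPM in WT (SD, n = 3 each), a log2 fold change of 0.65 ± 0.14 (adjusted p = 0.0286 by edgeR), and its call was lost without dKO 1, dKO 2 or WT 3 (adjusted p = 0.143, 0.103 and 0.0926). The receptor chains Ifnar1 (0.40 ± 0.16) and Ifnar2 (-0.34 ± 0.10) had log2 fold changes of opposite sign, and neither passed (adjusted p = 0.184 and 0.0897 by edgeR).

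Of the 34 tested antiviral genes induced through ISGF3, 1 was higher and 0 were lower, a share of 2.94% beside the background of 2.15%, and their median log2 fold change was -0.01. The gene was Ifit1, an RNA-binding restriction factor, with 81.0, 107 and 132 CPM in dKO, against 25.7, 39.4 and 49.8 CPM in WT. Every dKO library lay above every WT library, the log2 fold change was 1.47 ± 0.28 (adjusted p = 0.0472 by edgeR), and the call was lost without dKO 1, dKO 2, dKO 3 or WT 2 (adjusted p = 0.0522, 0.118, 0.0853 and 0.157). Oasl1 (0.90 ± 0.26) and Ifi44 (1.13 ± 0.33) had positive log2 fold changes that did not pass (adjusted p = 0.0742 and 0.0815 by edgeR).

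Of the 23 tested genes known to be induced by IRF1, 3 were higher in dKO and 0 were lower, with a median log2 fold change of 0.20. The share higher was 13%, beside 2.15% of all tested genes. The guanylate-binding protein gene Gbp5 had the firmest change, with 71.0, 84.1 and 77.3 CPM in dKO, against 36.9, 39.0 and 45.3 CPM in WT. The fold was 1.91, the log2 fold change was 0.94 ± 0.12 (adjusted p = 0.00141 by edgeR), and the call held without any single library (adjusted p up to 0.0125). Tapbp, a chaperone of MHC class I loading (0.44 ± 0.10, adjusted p = 0.0295), and Gbp2 (0.41 ± 0.10, adjusted p = 0.0430) rose less. The Tapbp call was lost in 8 and the Gbp2 call in 14 of 17 alternatives. Irgm1, another gene induced by interferon gamma, had a log2 fold change of -0.42 ± 0.13 and did not pass (adjusted p = 0.0981 by edgeR).

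Around IRF4, 3 of 16 tested genes of antigen receptor and NF-kB signalling, which induces Irf4, were higher in dKO and 0 were lower. The share higher was 18.8%, beside 2.15% of all tested genes, and the median log2 fold change of the list was 0.28. Rel, the NF-kB subunit that drives Irf4 in lymphocytes, stood at 375, 399 and 285 CPM in dKO, against 168, 211 and 231 CPM in WT. The groups did not overlap, and the log2 fold change of 0.79 ± 0.15 (adjusted p = 0.0168 by edgeR) no longer passed when dKO 1 or dKO 2 was left out (adjusted p = 0.102 and 0.0847). Nfkb1 (0.41 ± 0.10, adjusted p = 0.0414) and Malt1 (0.55 ± 0.14, adjusted p = 0.0495) also rose by edgeR, and their calls were lost in 11 and 13 of 17 alternatives. Among the dKO libraries Rel was lowest in dKO 3, where Irf4 was highest, while in WT both genes were lowest in WT 1 and highest in WT 3.

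Among the 12 tested DNA-binding partners of IRF4 or IRF8, 1 was higher in dKO and 0 were lower. That is a share of 8.33% higher, beside 2.15% of all tested genes, and the median log2 fold change was 0.03. Stat3, which acts with IRF4 in T cells, had 368, 355 and 273 CPM in dKO, against 217, 184 and 202 CPM in WT, without overlap. Its log2 fold change was 0.72 ± 0.13 (adjusted p = 0.0114 by edgeR), and the call was lost without dKO 1 or dKO 2 (adjusted p = 0.0757 and 0.0690). Batf, the AP-1 partner of IRF4, had 109 ± 18.5 CPM in dKO and 99.7 ± 28.9 CPM in WT (SD, n = 3 each) and did not pass (adjusted p = 0.793 by edgeR). Spib, an Ets factor of B cells and plasmacytoid dendritic cells that pairs with IRF4 and IRF8, was at 1.5 ± 0.531 CPM in dKO and 4.57 ± 2.27 CPM in WT (SD, n = 3 each) and did not pass (adjusted p = 0.0551 by edgeR). Its highest value, 7.18 CPM, was again in WT 3.

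Of the 22 tested effector and regulatory T cell genes that depend on IRF4, 6 were higher in dKO and 0 were lower. That is a share of 27.3% higher, beside 2.15% of all tested genes, and the median log2 fold change was 0.85. The 6 genes were Il2ra, Ctla4, Icos, Havcr2, Klrg1 and Maf. Some of these genes were singled out by the study on these same libraries, so that the count is not independent evidence of a direction. Of the 6 calls, 2 remained without dKO 1 (Ctla4 and Il2ra), 4 without dKO 2, 3 without dKO 3 and 3 without WT 3, and Klrg1 lost its call in 9 of 17 alternatives. The summed level of all 22 tested genes of the list was 7131, 5383 and 5440 CPM in dKO, against 1829, 3214 and 2845 CPM in WT. The order of the libraries differed from that of Irf4, since dKO 1 had the highest sum and the lowest Irf4 level in its group. The CD8 T cell genes Cd8a and Cd8b1 were also higher in dKO (summed 326, 295 and 337 CPM, against 202, 236 and 198 CPM in WT). By flow cytometry, the study reported a higher frequency and number of regulatory T cells among hepatic CD4 T cells of dKO mice with MASH. The part of either cell type in the 6 calls was not tested. Ccr6, a chemokine receptor of the same list, had a log2 fold change of -1.02 ± 0.24 and just missed the threshold (adjusted p = 0.0508 by edgeR). It was called lower in 9 of the 17 alternatives, among them DESeq2 (adjusted p = 0.00119) and limma-voom (adjusted p = 0.0424). Among the related corepressor genes Irf2bp1, Irf2bp2 and Irf2bpl, 0 of 3 passed.

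**Figure D4:**
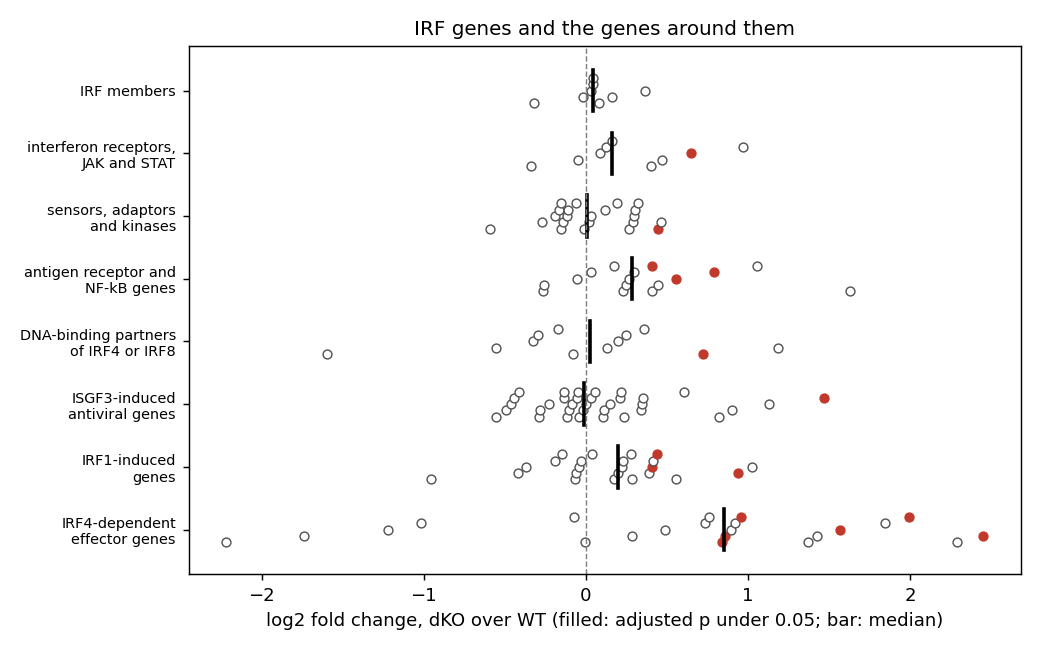
Log2 fold change in dKO over WT (x axis) of the 8 IRF genes and of the tested genes of 7 lists around them (rows), with filled points for an adjusted p under 0.05 and bars for each median. No IRF point is filled, the median of the IRF genes is 0.04, and all filled points of the lists lie above 0.

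Calls among the members appeared under few settings. Over the 8 members and 17 alternatives, 136 values in all, 3 passed the threshold in leave-one-out or covariate fits for Irf4 and Irf8, and Irf1 passed with its sign turned in the Xist fit. The sign turned in 23 of the 136 values, and in none of them for Irf2 and Irf3.

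**Figure D5:**
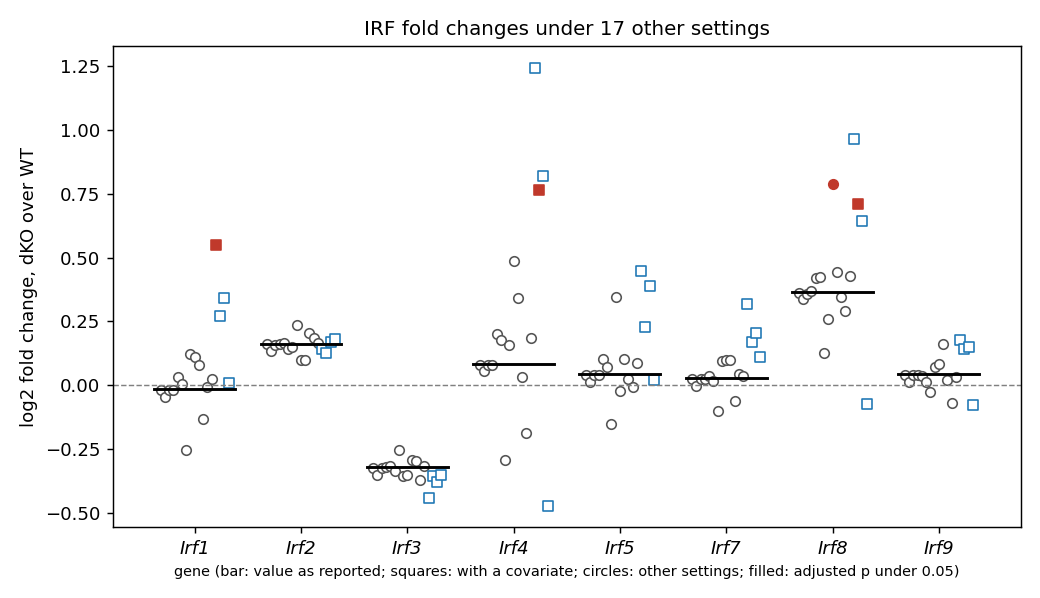
Log2 fold change in dKO over WT (y axis) of each IRF gene (x axis), with a bar for the value as reported, squares for fits with a covariate, circles for the other alternatives and filled symbols for an adjusted p under 0.05. Irf2 and Irf3 keep their sign throughout, Irf4 runs from -0.47 to 1.24, and the filled symbols belong to Irf1, Irf4 and Irf8.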

How the data were processed

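Single-end RNA-Seq reads of sorted hepatic CD4 T cells had been trimmed with cutadapt and mapped with Bowtie2 to the mouse genome (named as both mm10 and GRCm39), per the submitters' processing notes. The sources used here give no versions, annotation, counting tool or strand setting. The authors deposited whole-number counts of reads per gene symbol, which were tested here. The authors also deposited a normalised table called TPM, whose values are CPM: 100% of 170580 values gave back the count to within 0.01 reads. It was used in 1 alternative alone, for which TPM had been assumed.

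Genes were kept by filterByExpr (minimum count 10, minimum total count 15), library sizes were scaled by TMM, and dKO was compared with WT by the robust quasi-likelihood F-test of edgeR 4.0.16 (R 4.3.3), with Benjamini-Hochberg adjustment over 15694 genes and a threshold of 0.05. The SE is the size of the log2 fold change over the square root of F. All adjusted p come from this test unless another tool is named. P-values reflect only how far these 6 libraries spread. All pairs of libraries differed by more than counting error (chi-square per degree of freedom 6.02 to 32.0). The procedure was tested on simulated data. Alternatives were RLE and upper-quartile factors, no filter, DESeq2 1.42.0, limma-voom and limma-trend (limma 3.58.1, on log2(CPM + 1)), each library left out, the replicate number as a block, and 4 covariates (Xist, stress genes, myeloid and B cell markers).

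Members and gene lists were chosen with earlier results of these data known. Named genes were the members, Nr4a genes, every called gene of a list with up to 4 others of smallest p (a selection is given), and 3 genes most alike per member. Batf, Bcl2l12, Tnpo3, Rnf31, the single marker genes and Ddx3y were named outside this rule, after their values were seen. No test was run on a list as a whole. Some genes of the lists are not reported here and were left out of the lists' counts.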

Additional observations from a re-analysis of the deposited data

How the results depend on the processing

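None of the members passed under the other normalisations, without a filter, or by DESeq2, limma-voom, limma-trend or the replicate block. Over the 6 fits without 1 library each, the number of members called ran from 0 to 1 (Irf8 without WT 3), the genes called higher from 90 to 447 and those called lower from 42 to 378. Those fits gave log2 fold changes of -0.25 to 0.12 for Irf1, -0.29 to 0.49 for Irf4, -0.15 to 0.35 for Irf5, -0.10 to 0.10 for Irf7, 0.13 to 0.79 for Irf8, -0.070 to 0.16 for Irf9, -0.037 to 0.38 for Batf, -0.11 to 0.057 for Tnpo3 and -0.037 to 0.18 for Rnf31.

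With the Xist covariate 1 member was called (Irf1, 0.55) and with the stress covariate 2 were (Irf4, 0.76, and Irf8, 0.71), where Irf1 was 0.27. Irf1 also turned above 0 by limma-voom (0.034), limma-trend (0.0067), the replicate block (0.025), the myeloid covariate (0.34) and the B cell covariate (0.010), and Irf7 turned below 0 with upper-quartile factors (-0.00094). The B cell covariate turned Irf4 (-0.47), Irf8 (-0.072), Irf9 (-0.079), Tnpo3 (0.038) and Rnf31 (-0.14) and left 2 genes called higher and 1 lower. Without a filter 756 genes were called higher and 560 lower, and DESeq2 called 509 higher. The cause was not tested.

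Over all tested genes the replicate numbers gave no clear pairing. Deviations of same-numbered libraries correlated at 0.06, 0.03 and -0.09, and not every library correlated best with its own number. Single members differed in this. The block narrowed the SE of Irf4 from 0.59 to 0.15 and that of Irf8 from 0.29 to 0.18, but not that of Irf2 or Irf3. Whether the numbers mark pairs was not tested further. With the replicate block 307 genes were called higher and 184 lower. Of genes named as not passing, Spib was called lower in 6, Bcl2l12 in 3 and Irgm1 in 2, and Oasl1 was called higher in 3 and Ifnar1 in 1 of 17 alternatives. Irf5, the least read member, had a coefficient of variation of 7.39% in dKO and 35.3% in WT, where counting error alone gives 8.65% and 7.84%.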
